A study of Mus musculus with 16 samples.

Results

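The genes that write and erase DNA methylation were followed on chromatin of cells with and without ATXN7L3, the adaptor that activates the ubiquitin proteases acting on histone H2B. The members were taken by name, as Dnmt1, Uhrf1, Dnmt3a, Dnmt3b, Dnmt3l, Tet1, Tet2, Tet3 and Tdg, and make up 9 of the 21938 protein-coding genes of the annotation. The study mapped H2B monoubiquitylation (H2Bub1) and RNA polymerase II (Pol II) by ChIP-seq, with an antibody to H2Bub1 and an antibody to RPB1, its largest subunit. The chromatin was that of mouse embryonic stem cells (mESCs) and of embryonic fibroblasts (MEFs) derived at E10.5. In each cell type Atxn7l3+/+ (WT) and Atxn7l3-/- (KO) cells were compared, all of the mixed strain DBA/2 x C57BL/6. The KO cells carry a constitutive null and derive from intercrosses of heterozygous mice. The mESCs of both genotypes were grown in serum with LIF and the kinase inhibitors PD0325901 and CH99021, and the MEFs in serum alone. The labels describe 16 samples, of which 8 (inputs and Pol II phosphorylated at serine) were not analysed here. The remaining 8 form the groups mESC WT, mESC KO, MEF WT and MEF KO for each antibody, with 1 library per group. There is no replicate check of any difference below, no p-value is given, and a difference between genotypes cannot be told apart from a difference between single libraries or cell lines.

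DNMT1 copies DNA methylation onto the new strand after replication, and UHRF1 brings it to hemimethylated DNA. DNMT3A and DNMT3B methylate DNA de novo, and DNMT3L, which has no catalytic activity, stimulates them. The TET enzymes oxidise methylated cytosine and TDG excises the oxidised base, and mESCs kept with kinase inhibitors are known for low DNA methylation. H2Bub1 is laid down on gene bodies during transcription and is removed by the proteases that need ATXN7L3.

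The promoters of the genes differ widely in CpG, the dinucleotide that these enzymes act on. RefSeq windows of 300 bases, from 250 before to 50 after an annotated start, were found for 9 of 9 members, 16 windows in all on GRCm38.p6. The median of all 32851 mouse windows was 7 CpG. The windows given here are those at which Pol II peaks lay or were missing, written in lower case 5′ to 3′ on the gene's strand with each CpG in capitals. Dnmt1 is given at the start of its gene record (chr9:20959839-20960138, minus strand, 2 CpG) and at the starts 6909 bp (chr9:20952930-20953229, 12 CpG) and 7265 bp downstream (chr9:20952574-20952873, 33 CpG).
Dnmt1, record start: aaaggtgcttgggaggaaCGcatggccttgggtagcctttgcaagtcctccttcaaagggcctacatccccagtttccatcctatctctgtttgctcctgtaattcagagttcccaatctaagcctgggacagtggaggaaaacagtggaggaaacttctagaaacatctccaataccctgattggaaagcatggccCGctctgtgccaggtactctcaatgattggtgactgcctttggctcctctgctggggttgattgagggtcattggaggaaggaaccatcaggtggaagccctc
Dnmt1, start at 6909 bp: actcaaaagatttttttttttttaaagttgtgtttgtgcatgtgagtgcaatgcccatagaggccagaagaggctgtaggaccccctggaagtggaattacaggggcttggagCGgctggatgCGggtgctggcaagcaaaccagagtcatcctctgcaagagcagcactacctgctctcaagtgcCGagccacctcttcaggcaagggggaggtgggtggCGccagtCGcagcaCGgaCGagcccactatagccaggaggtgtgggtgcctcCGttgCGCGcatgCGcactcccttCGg
Dnmt1, start at 7265 bp: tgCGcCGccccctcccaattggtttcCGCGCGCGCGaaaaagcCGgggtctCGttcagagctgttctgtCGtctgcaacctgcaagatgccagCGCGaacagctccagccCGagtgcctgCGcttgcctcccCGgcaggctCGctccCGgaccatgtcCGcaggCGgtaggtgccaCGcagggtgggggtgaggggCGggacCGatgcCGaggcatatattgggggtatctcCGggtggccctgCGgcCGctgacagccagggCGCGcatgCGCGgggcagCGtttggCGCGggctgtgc
Dnmt3a is given at its first promoter (chr12:3806910-3807209, plus strand, 47 CpG) and at an internal start 85737 bp into the gene (chr12:3891494-3891793, 18 CpG), known as the start of the shorter DNMT3A2 protein of stem cells.
Dnmt3a, first promoter: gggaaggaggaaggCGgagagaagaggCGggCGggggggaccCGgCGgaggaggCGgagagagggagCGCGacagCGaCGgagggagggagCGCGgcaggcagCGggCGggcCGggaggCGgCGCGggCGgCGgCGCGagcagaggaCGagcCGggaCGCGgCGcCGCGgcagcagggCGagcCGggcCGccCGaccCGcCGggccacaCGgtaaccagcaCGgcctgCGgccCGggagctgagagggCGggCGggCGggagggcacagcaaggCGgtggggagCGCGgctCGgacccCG
Dnmt3a, internal start: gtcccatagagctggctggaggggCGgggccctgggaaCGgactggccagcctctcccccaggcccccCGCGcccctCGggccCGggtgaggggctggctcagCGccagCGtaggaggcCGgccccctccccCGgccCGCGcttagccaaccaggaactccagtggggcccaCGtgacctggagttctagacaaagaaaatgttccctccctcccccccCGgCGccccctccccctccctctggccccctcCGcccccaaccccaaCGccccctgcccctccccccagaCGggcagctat
Dnmt3b (chr2:153649199-153649498, plus strand, 30 CpG) and Dnmt3l (chr10:78042037-78042336, plus strand, 6 CpG) are set side by side because Dnmt3b had Pol II peaks and Dnmt3l had none in any library.
Dnmt3b: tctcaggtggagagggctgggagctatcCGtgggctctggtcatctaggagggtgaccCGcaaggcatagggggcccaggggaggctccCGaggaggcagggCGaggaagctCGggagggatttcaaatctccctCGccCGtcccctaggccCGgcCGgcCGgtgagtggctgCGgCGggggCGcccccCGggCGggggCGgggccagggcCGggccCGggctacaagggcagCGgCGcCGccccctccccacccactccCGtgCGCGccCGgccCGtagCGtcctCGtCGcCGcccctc
Dnmt3l: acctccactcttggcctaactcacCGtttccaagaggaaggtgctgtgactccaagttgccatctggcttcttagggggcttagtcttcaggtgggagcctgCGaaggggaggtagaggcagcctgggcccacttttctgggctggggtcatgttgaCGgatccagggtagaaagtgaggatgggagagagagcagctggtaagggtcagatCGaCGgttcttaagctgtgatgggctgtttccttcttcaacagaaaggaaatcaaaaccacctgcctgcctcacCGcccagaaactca
Tet1 is given at the start 21672 bp downstream of its record start (chr10:62887275-62887574, minus strand, 17 CpG), which a Pol II peak overlapped in either mESC library, and Tet2 (chr3:133544341-133544640, minus strand, 57 CpG) as the window richest in CpG among the 16.
Tet1, downstream start: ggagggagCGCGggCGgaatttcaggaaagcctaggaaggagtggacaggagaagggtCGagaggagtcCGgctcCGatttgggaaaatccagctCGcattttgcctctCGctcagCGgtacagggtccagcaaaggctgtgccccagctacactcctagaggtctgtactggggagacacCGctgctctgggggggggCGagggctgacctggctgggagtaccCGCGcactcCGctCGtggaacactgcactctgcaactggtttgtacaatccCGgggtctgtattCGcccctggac
Tet2: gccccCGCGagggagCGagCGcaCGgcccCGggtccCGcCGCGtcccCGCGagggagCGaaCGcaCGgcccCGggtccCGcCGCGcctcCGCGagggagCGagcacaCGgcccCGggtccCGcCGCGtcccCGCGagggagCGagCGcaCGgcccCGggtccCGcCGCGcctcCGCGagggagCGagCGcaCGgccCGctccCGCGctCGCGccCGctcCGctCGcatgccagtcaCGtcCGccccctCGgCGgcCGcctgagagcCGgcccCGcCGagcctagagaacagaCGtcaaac
A count of CpG as high as that of Tet2 was reached by 0.152% of all windows, that of the first Dnmt3a promoter by 1.44%, and that of the Dnmt1 record start by 85.9%. The GC box GGGCGG was searched on both strands and is held by 35.7% of all windows. The first Dnmt3a promoter holds 7 matches, Dnmt3b 4, the internal Dnmt3a start and the Dnmt1 start at 7265 bp 2 each, and Tet1, Tet2 and Dnmt3l 1 each, while the Dnmt1 record start and its start at 6909 bp hold none. These matches describe the letters of the windows and were not set against binding of a factor.

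The peak lists set the scale of what follows. They held 17074 (mESC WT), 11963 (mESC KO), 45869 (MEF WT) and 32232 (MEF KO) Pol II peaks. H2Bub1 peaks numbered 19723 to 48952 and covered 71.6 Mb (mESC WT), 151 Mb (mESC KO), 48.1 Mb (MEF WT) and 223 Mb (MEF KO). How many reads stand behind a list is unknown. Of the pluripotency genes fixed as a check, 4 of 4 had a Pol II promoter peak in both mESC libraries and 0 in WT and 1 in KO MEFs, the exception being Tfcp2l1. Of the fibroblast genes, 4 of 4 had one in both MEF libraries and none in mESCs. The X chromosome held 0.855% of the Pol II peaks of WT and 2.76% of those of KO mESCs, and 0.569% and 2.20% of their H2Bub1 peaks. In MEFs it held 2.12% (WT) and 2.1% (KO) of the Pol II peaks and 0.735% (WT) and 2.63% (KO) of the H2Bub1 peaks. No member lies on the X, but the other pathway genes named below were not sorted by chromosome. What these differences contribute to the results below was not tested.

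At promoters, the record start missed several of these genes. A promoter call needed a Pol II peak within 1000 bp of the transcription start site (TSS) of the gene record, and by that rule 4 of 9 members were called in WT mESCs (33.9% of all genes were), 3 in KO mESCs (31.3%), and 5 in either genotype of MEFs (54.1% in WT, 51.1% in KO). With a peak near any annotated protein-coding start, 7 were called in WT mESCs (36.2% of all genes) and 7 after loss of Atxn7l3 (33.5%), and for MEFs the counts were 8 (WT, 56.7%) and 7 (KO, 53.8%). In WT mESCs, 3 of the 7 members with a peak had it away from the record start, as did 7.46% of all genes with a peak. Those 3, Dnmt1, Tet1 and Tet3, had no peak at their record start in any library. Pol II values are given from here on as the deposited fold of the highest peak near any coding start. That fold is the pileup at the peak over the background estimated for its library, and the control used is not given. Folds are therefore not levels on a scale common to the libraries, and over all genes with such a peak in the library their median was 4.39 (mESC WT), 4.54 (mESC KO), 13.4 (MEF WT) and 11.6 (MEF KO).

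**Figure D1:**
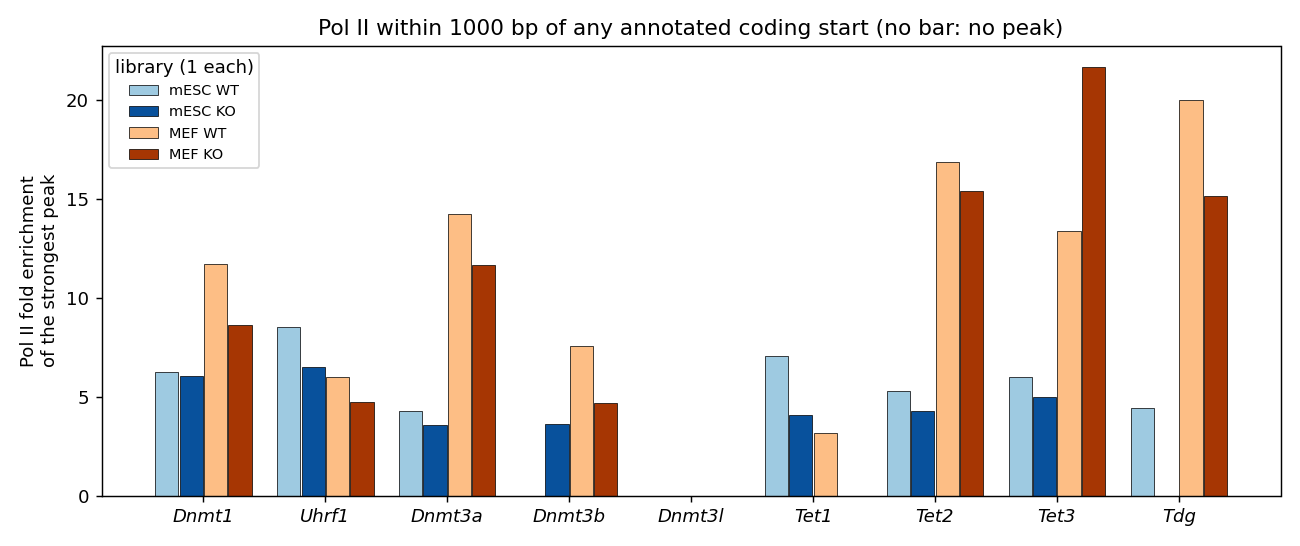
Highest Pol II fold over the background estimated for its library (y axis) within 1000 bp of any protein-coding start of each of the 9 genes (x axis). Each library has 1 bar, and there is no bar without a peak. Tdg, Tet2, Tet3, Dnmt1, Dnmt3a and Dnmt3b each had higher folds in both MEF libraries than any fold called for the same gene in mESCs. The medians of all genes were higher in MEFs as well, while Dnmt3l had no peak in any library.

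Dnmt1, the maintenance methyltransferase (ENSMUSG00000004099, chr9:20907209-20959888, minus strand, 52680 bp on GRCm38), is transcribed from a start used in oocytes and from a start used in somatic cells further into the gene record. Its Pol II fold was 6.23 in WT against 6.04 in KO mESCs, and 11.7 against 8.63 in the MEF pair. The mESC summits lay 6841 bp (WT) and 6835 bp (KO) from the record start, at -68 and -74 bp from the coding start at 6909 bp. The MEF summits lay at 7180 bp (WT) and 7136 bp (KO), at -85 and -129 bp from the coding start at 7265 bp. The mESC summits thus fell in the printed window of 12 CpG and the MEF summits in that of 33 CpG, and no library had a peak within 1000 bp of the record start. WT MEFs alone also had a weaker peak at -1819 bp (fold 3.17), upstream of the record start. The log2 ratio of KO to WT fold was -0.046 in mESCs and -0.44 in MEFs.

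Uhrf1 (ENSMUSG00000001228, chr17:56303321-56323486, plus strand, 20166 bp), whose protein guides DNMT1, had a Pol II fold of 8.51 (WT) and 6.49 (KO) for mESCs, and 6.01 (WT) and 4.75 (KO) for MEFs. The value was lower in KO than in WT in both cell types, by log2 ratios of -0.39 and -0.34. The summits of these peaks lay between 288 and 845 bp after the record start, in an intron, and KO mESCs had a weaker one upstream (fold 3.21). Another Pol II peak stood 2414 to 2631 bp past the end of the gene in all 4 libraries, within 162 bp of a start of the neighbouring gene Kdm4b, so signal past the end of Uhrf1 was not assigned to it.

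Dnmt3a (ENSMUSG00000020661, chr12:3806007-3914443, plus strand, 108437 bp), a de novo methyltransferase, showed different Pol II peaks in the cell types. At the first promoter the fold was 3.07 (mESC WT), 3.55 (mESC KO), 14.2 (MEF WT) and 11.7 (MEF KO). The mESC values come from separate peaks that do not overlap, with summits 318 bp (WT) and 1203 bp (KO) from the record start. At the internal start (85721 bp) the fold was 4.25 in WT mESCs and 3.52 in WT MEFs, with no peak in either KO library. WT mESCs were the only library in which the internal start held the higher fold of the pair. In MEFs a further intronic peak, 4676 bp (WT) and 4606 bp (KO) before the coding start at 55014 bp, had a fold of 4.09 in WT and 9.97 in KO. Peaks inside the body, the promoter included, numbered 5 in WT against 2 in KO mESCs, and 8 against 4 in the MEF pair. The whole Pol II lists were smaller in KO in both cell types as well.

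Dnmt3b (ENSMUSG00000027478, chr2:153649450-153687730, plus strand, 38281 bp), the de novo enzyme of the early embryo, had no Pol II peak in WT mESCs and a fold of 3.62 in KO mESCs, while MEFs gave 7.57 (WT) and 4.70 (KO). It was the only member with a promoter peak in KO but not WT mESCs, which 5.13% of all genes showed (5.35% with any coding start). The 3 summits lay 117 to 184 bp after the record start, in an exon. An antisense gene, Dnmt3bos, starts on the opposite strand 836 bp into the Dnmt3b record. Dnmt3l (ENSMUSG00000000730, chr10:78041947-78063622, plus strand, 21676 bp), the cofactor, had no Pol II peak near any of its starts or in its body in any library. It overlaps Aire, another coding gene, which starts on the opposite strand no further than 1663 bp into the record. Signal in that first stretch could not be given to Dnmt3l alone.

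**Figure D2:**
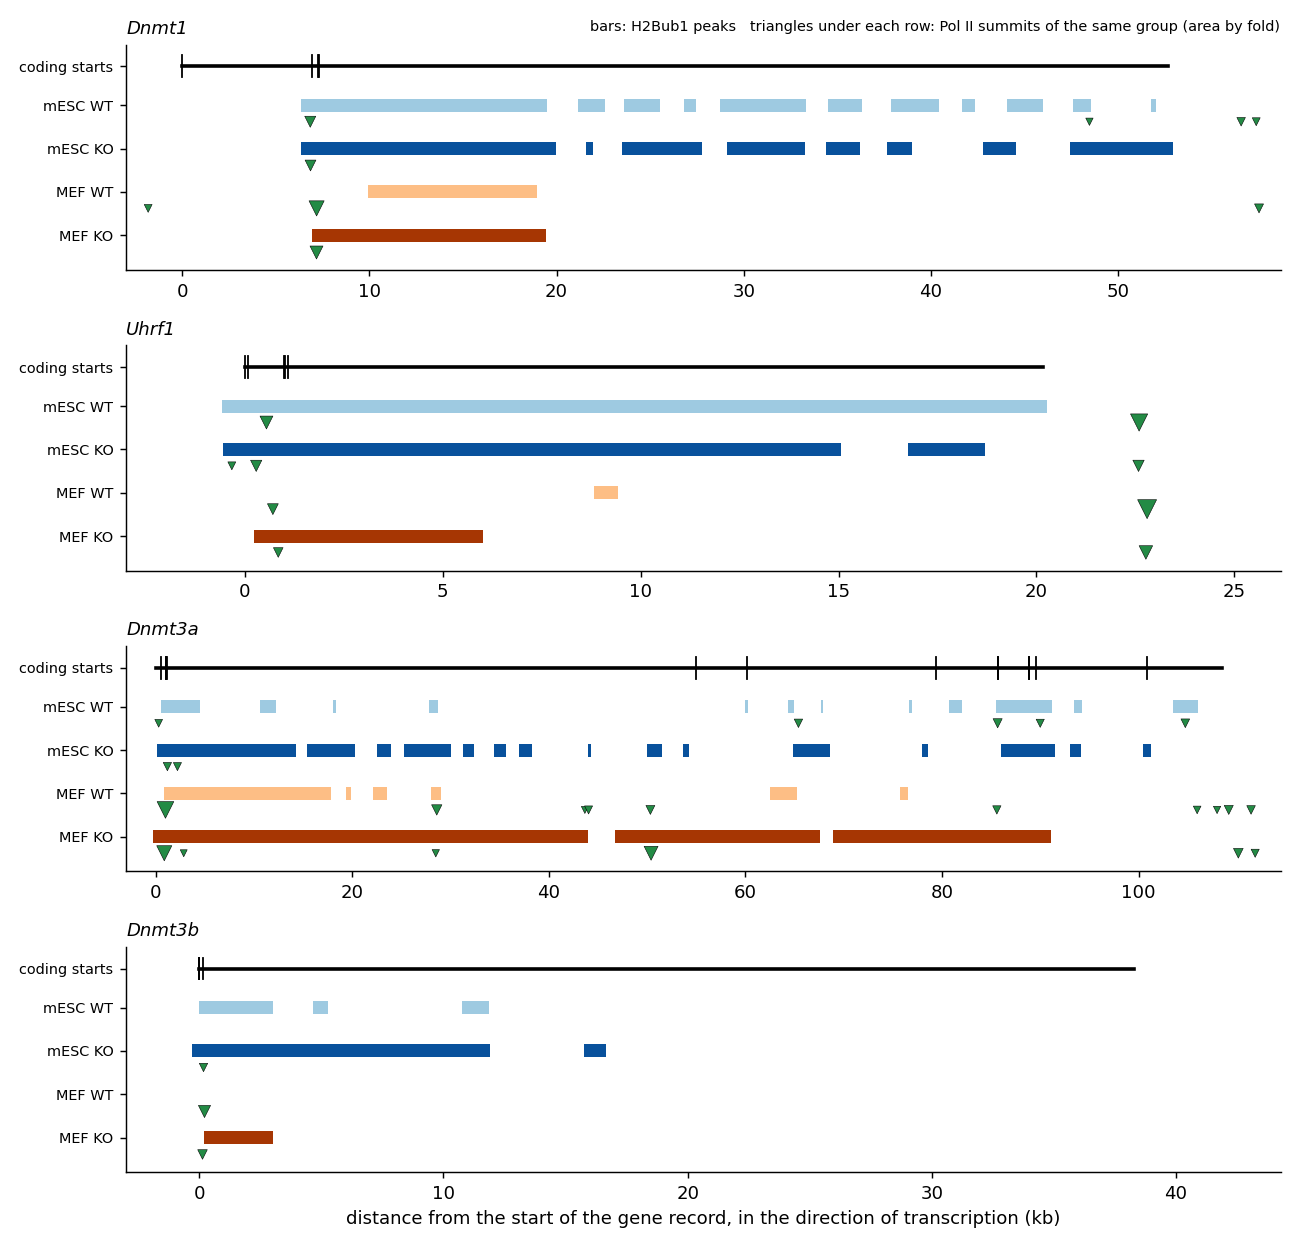
Maps of Dnmt1, Uhrf1, Dnmt3a and Dnmt3b, with distance from the record start in transcript direction on the x axis (kb) and the 4 groups as rows. Bars are H2Bub1 peaks, triangles under each row are Pol II summits with area by fold, and the Dnmt1 H2Bub1 peaks of all 4 rows start 6 kb or more into the record.

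Among the TET dioxygenases, Tet1 (ENSMUSG00000047146, chr10:62804570-62908996, minus strand, 104427 bp), the form abundant in stem cells, had its highest mESC peaks near the downstream start at 21672 bp, with summits 254 bp (WT) and 750 bp (KO) past it. The KO peak lay outside the printed window, which a weaker KO peak (fold 3.81) overlapped. The highest fold near that start was 7.05 in WT and 4.10 in KO mESCs, a log2 ratio of -0.78, and 3.18 in WT MEFs, with no peak in KO MEFs. WT mESCs alone also had peaks near the coding starts at 9878 bp (fold 3.68) and 16010 bp (4.30). In MEFs the highest peak of the gene lay elsewhere, in an intron 43573 bp (WT, fold 16.7) and 43671 bp (KO, fold 5.22) from the record start. These summits lay 14591 bp (WT) and 14689 bp (KO) past the nearest coding start and 119 bp (WT) and 21 bp (KO) from the start of an annotated non-coding transcript of the gene, and no mESC library had a peak there.

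Tet2 (ENSMUSG00000040943, chr3:133463679-133545139, minus strand, 81461 bp) had a promoter fold of 5.30 (WT) and 4.27 (KO) for mESCs, and 16.9 (WT) and 15.4 (KO) for MEFs. It was one of the 5 members with a Pol II peak near a coding start in all 4 libraries, with Tet3, Dnmt1, Dnmt3a and Uhrf1, as were 27.0% of all genes. WT mESCs also had intronic peaks of fold 5.15, 4.12 and 3.73 at 11342, 18862 and 19624 bp, and KO mESCs had 1 of fold 3.55 at 10903 bp. Both MEF libraries lacked peaks in that intronic stretch. An antisense gene, Gm42567, starts on the opposite strand 42 bp into the Tet2 record, and ChIP-seq does not separate the strands.

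Tet3 (ENSMUSG00000034832, chr6:83362373-83459084, minus strand, 96712 bp) had peaks at a pair of coding starts in every library. At the start at 2692 bp the fold was 6.01 (mESC WT), 5.00 (mESC KO), 13.4 (MEF WT) and 11.7 (MEF KO), lower in KO in both. At the start at 17409 bp it was 3.91 in WT against 4.91 in KO mESCs, and 12.7 against 21.6 in the MEF pair, higher in KO in both. An antisense gene, B230319C09Rik, starts on the opposite strand within 137 bp of the latter, and ChIP-seq does not separate the strands.

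Tdg (ENSMUSG00000034674, chr10:82629828-82650799, plus strand, 20972 bp), the glycosylase that removes oxidised bases, had a fold of 4.44 in WT mESCs and no peak in KO mESCs, while MEFs gave 20.0 (WT) and 15.1 (KO). The WT mESC summit lay 306 bp upstream of the record start, and those of MEFs 94 bp (WT) and 101 bp (KO) after it. Tdg and Dnmt3a were the 2 members called at the record start in WT but not KO mESCs, which 7.64% of all genes were, and with any coding start Tdg alone remained (8.05% of all genes). With equal numbers of peaks Dnmt3a was not called at the record start in WT mESCs either.

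**Figure D3:**
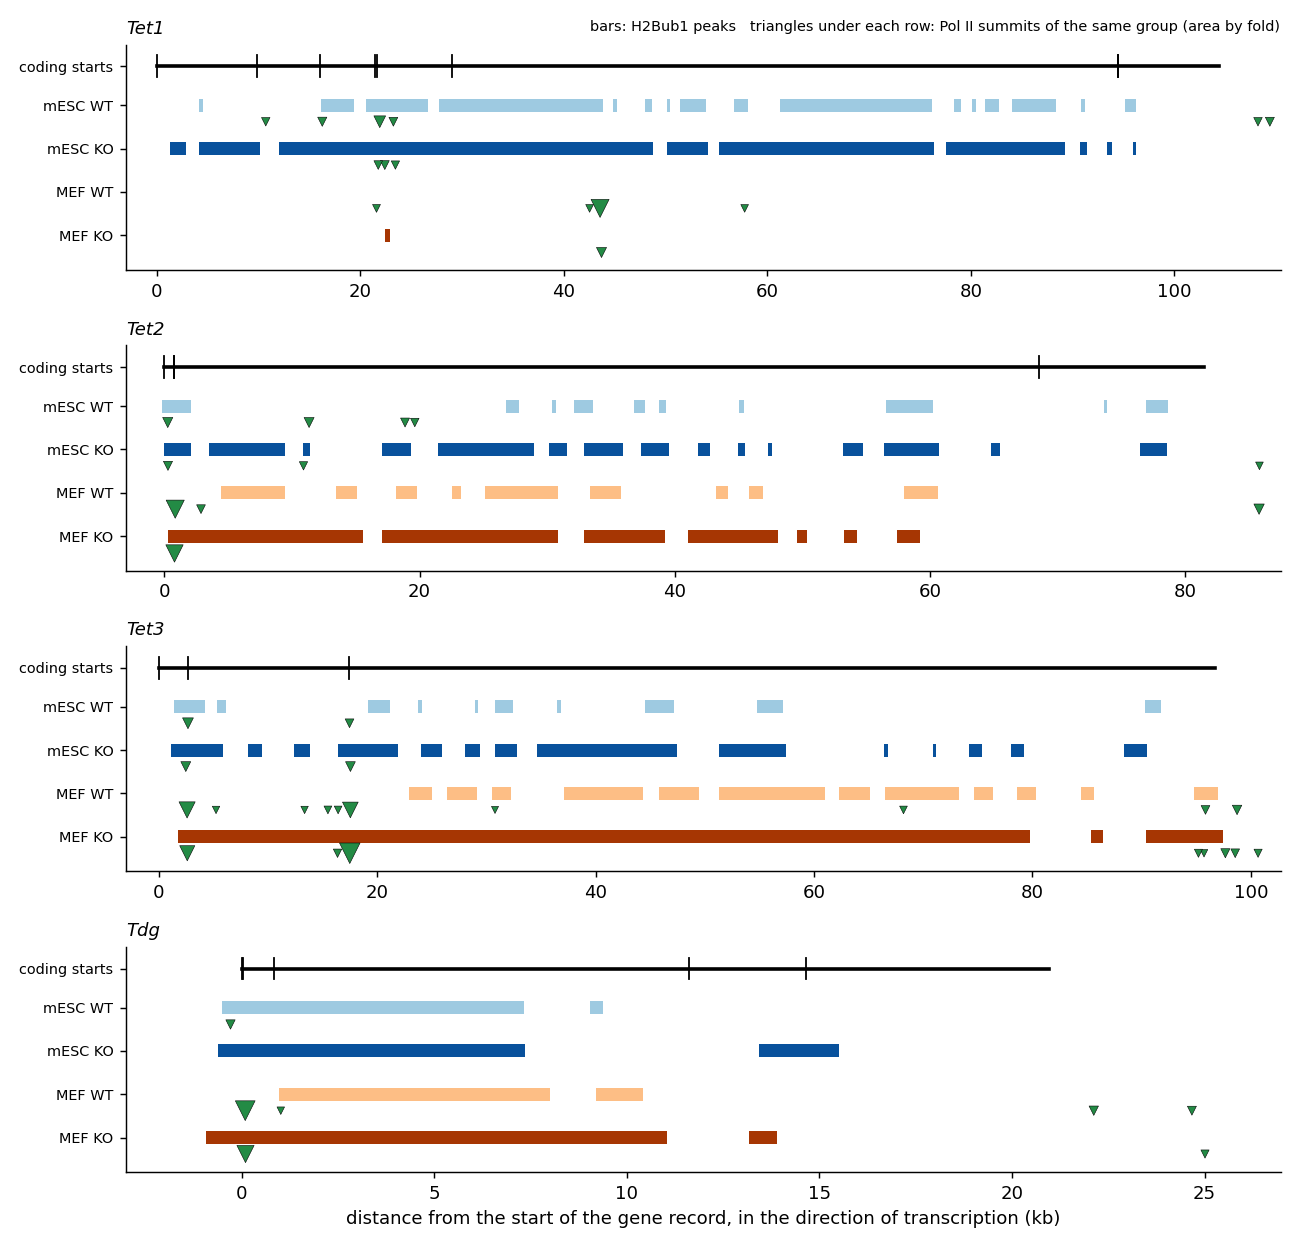
Maps of Tet1, Tet2, Tet3 and Tdg with distance from the record start (kb) on the x axis, the 4 groups as rows, H2Bub1 peaks as bars and Pol II summits as triangles under each row. Tet1 has H2Bub1 peaks over much of its body in both mESC rows and a single short one in the MEF rows, whereas Tet3 has its longest H2Bub1 peak (78031 bp) in KO MEFs.

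The highest fold near any coding start was lower in KO than in WT mESCs for 6 of 6 members with a peak in both, as for 47.6% of 6180 such genes. For Dnmt3a this sets the internal start in WT against the first promoter in KO. Near the first promoter alone the KO fold was the higher, but the WT and KO peaks there do not overlap. The median log2 ratio was -0.29 for the members and 0.025 for all genes. In MEFs 6 of 7 members were lower in KO, against 67.6% of 11472 genes, and the medians were -0.34 and -0.23. Tet3 was the exception in MEFs, where its highest peak was that at 2692 bp in WT and that at 17409 bp in KO. With any coding start, Tet1 was the only member with a peak in WT but not KO MEFs, as were 4.41% of all genes. No member had a peak in KO but not WT MEFs, at the record start (1.46% of all genes) or at any coding start (1.48%). Between the cell types, Dnmt3b was the member with a peak in WT MEFs but not WT mESCs (22.4% of all genes), and Tdg the one with a peak in KO MEFs but not KO mESCs (22.0%). Tet1 had a peak in KO mESCs and not in KO MEFs (1.73%), and no member was called in WT mESCs and not in WT MEFs (1.88%).

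H2Bub1 was measured as the covered share, the percentage of a gene body's bases that lie inside an H2Bub1 peak. All 9 members had an H2Bub1 peak in WT mESCs (53.6% of all genes) and again in KO mESCs (60.8%). In MEFs 6 had one in WT (30.4%) and 8 in KO (53.0%). No member had H2Bub1 in 1 genotype of mESCs alone, where 2.97% of all genes had it in WT alone and 10.1% in KO alone, and none had it in WT MEFs only (0.278%). With only peaks of -log10 q of at least 3, members with H2Bub1 numbered 3 (WT, 21.3% of all genes) against 8 (KO, 44.0%) for mESCs, and 0 (WT, 5.52%) against 7 (KO, 48.1%) for MEFs. The loss of calls at this limit was thus larger in the WT than in the KO libraries, for the members and for all genes. The members are long, with a median of 52680 bp against 17425 bp for all genes, and a long gene has more room for a peak of 1 bp or more. The covered share was higher in KO for 8 of 9 members in mESCs, as for 83.6% of genes with a peak in either genotype, and for 8 of 8 in MEFs, as for 98.7%, with 0.949% lower. The median share of the 9 was 17.3% (mESC WT), 44.1% (mESC KO), 17.1% (MEF WT) and 28.8% (MEF KO). Over all genes the median was 0.866% (mESC WT), 5.64% (mESC KO), 0% (MEF WT) and 4.29% (MEF KO). Among genes with a peak in either genotype the median difference, KO minus WT, was 22.3 points for the members and 10.2 for all 13984 genes in mESCs, but 21.3 for the members and 34.4 for all 11692 genes in MEFs.

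**Figure D4:**
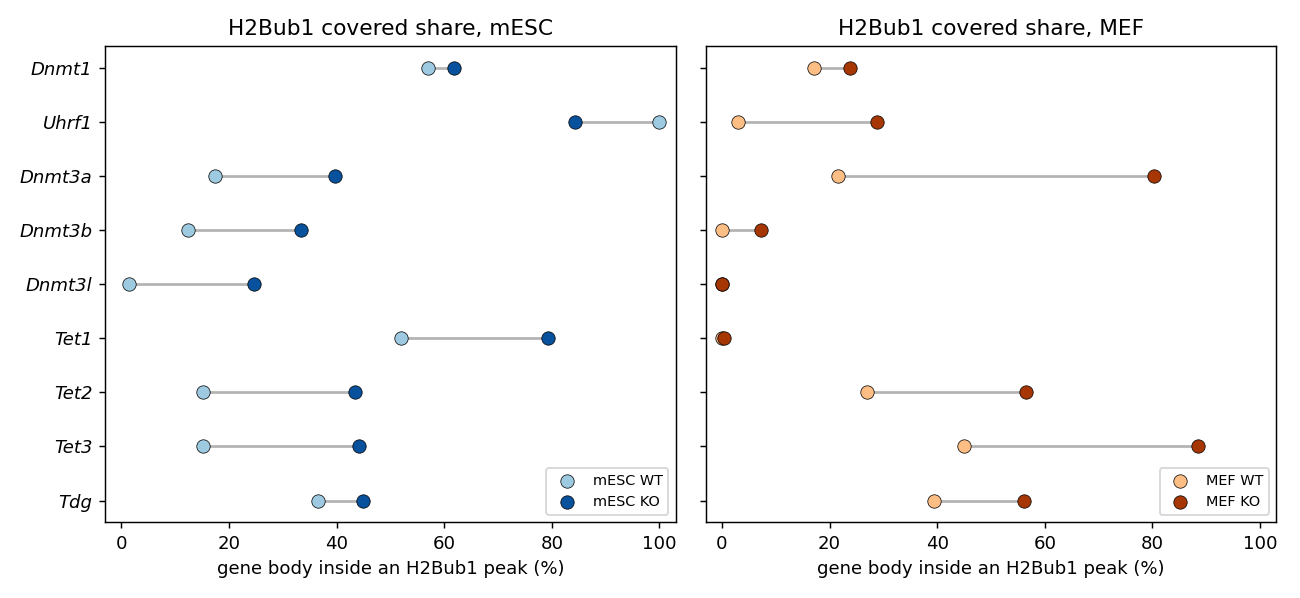
H2Bub1 covered share of the gene body (x axis, %) of each of the 9 genes (y axis) in WT and KO mESCs and WT and KO MEFs, 1 library per value. Uhrf1 is at 100% in WT and 84.2% in KO mESCs, and the other 8 genes are higher in KO mESCs than in WT mESCs.

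Of the maintenance genes, Dnmt1 had a covered share of 57.0% (WT) and 61.9% (KO) for mESCs, and 17.1% (WT) and 23.7% (KO) for MEFs. Its H2Bub1 began 6357 bp (WT) and 6356 bp (KO) from the record start in mESCs, and 9943 bp (WT) and 6929 bp (KO) in MEFs, close to the downstream start in 3 of the 4 libraries. Measured from the coding start at 6909 bp, 64.4% (mESC WT), 70.0% (mESC KO), 19.7% (MEF WT) and 27.3% (MEF KO) of the gene was covered. The mean fold of its peaks, weighted by length, was 2.83 (mESC WT), 3.42 (mESC KO), 2.82 (MEF WT) and 4.34 (MEF KO). In both MEF libraries the mark lay in a single peak ending before 20 kb, whereas in mESCs it went on in 11 (WT) and 8 (KO) peaks to beyond 50 kb. The difference of Dnmt1, 4.89 points in mESCs and 6.64 in MEFs, was exceeded by 63.3% of genes with a peak in either genotype in mESCs and by 88.8% in MEFs. Its size changed with the peaks used, being 25.8 points in mESCs and 23.7 in MEFs at a -log10 q of at least 3, and 1.61 in mESCs with equal numbers of peaks.

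Uhrf1 was covered to 100% in WT against 84.2% in KO mESCs, and 2.98% against 28.8% in the MEF pair. It was the only member lower in KO mESCs, by -15.8 points, where 14.7% of genes with a peak in either genotype were lower and 2.86% had a larger decrease. The difference kept its sign under every alternative for the body and the peaks, from -14.9 to -25.4 points. The WT share stands at its ceiling and could not have been exceeded in KO. The mean fold of the peaks, weighted by length, was 3.72 (mESC WT), 3.48 (mESC KO), 2.70 (MEF WT) and 2.29 (MEF KO), lower in KO in both cell types by log2 ratios of -0.096 and -0.24. The WT peak ran from -567 bp, upstream of the record start, to 20273 bp, past the end of the gene. In KO mESCs the peaks ran from -551 bp to 15050 bp and from 16758 to 18689 bp, so the missing stretches lay in the last 3 of 10 equal bins of the body. Those bins were 46.4%, 69.0% and 26.8% covered in KO and 100% in WT. In MEFs WT had 1 peak of 600 bp at 8822 to 9421 bp, and KO 1 peak from 221 to 6029 bp, which did not overlap it.

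Of the de novo genes, Dnmt3a had a covered share of 17.3% (WT) and 39.6% (KO) for mESCs, and 21.7% (WT) and 80.4% (KO) for MEFs. Its covered length was 18.8 kb and 43.0 kb in mESCs, and 23.5 kb and 87.1 kb in MEFs. The KO MEF value was reached with 3 peaks, the widest of 44268 bp, and the WT MEF value with 6 peaks, the widest of 16984 bp. Its difference of 58.7 points in MEFs was exceeded by 22.8% of genes with a peak in either genotype. The mESC difference of 22.3 points was 13.3 at a -log10 q of at least 3.

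Dnmt3b was covered to 12.4% (mESC WT), 33.5% (mESC KO), 0% (MEF WT) and 7.33% (MEF KO). In KO mESCs a single peak of 12213 bp reached from -289 bp, upstream of the record start, to 11923 bp, where WT had 3 short peaks within the same range. No library had H2Bub1 in the last 5 of the 10 bins of the gene. In MEFs Dnmt3b, with Tet1, was covered in KO alone, as were 22.9% of all genes. Its MEF promoter thus held Pol II in both genotypes, with 1 peak of H2Bub1 of 2806 bp in KO and none in WT.

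Dnmt3l was covered to 1.32% in WT and 24.6% in KO mESCs, that is 287 bp and 5324 bp, and to 0% in both MEF libraries. These are weak peaks, with a -log10 q of at most 2.19, and with a limit of 3 both mESC values were 0%. H2Bub1 in both mESC libraries and in neither MEF library was found in 7.43% of all genes and in no other member. The KO mESC peaks began 7913 bp into the record, near the coding start at 7895 bp. No Pol II peak was called there, and the H2Bub1 peaks of both mESC libraries lay outside the stretch shared with Aire.

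Tet1 had a covered share of 52.0% in WT against 79.3% in KO mESCs, and 0% against 0.459% in the MEF pair. The single MEF peak, of 479 bp, lay 22408 to 22886 bp from the record start, next to the start with Pol II in mESCs and not at the strong intronic Pol II peak of MEFs. The stretch with that Pol II peak had no H2Bub1 peak in either MEF library. The KO MEF peak of Tet1 was lost with a -log10 q of at least 3 and with equal numbers of peaks. Tet2 was covered to 15.1% (WT) and 43.5% (KO) for mESCs, and 26.9% (WT) and 56.5% (KO) for MEFs, with differences of 28.4 and 29.5 points, KO minus WT, of which the former was 8.25 at a -log10 q of at least 3.

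Tet3 was covered to 15.2% (mESC WT), 44.1% (mESC KO), 44.9% (MEF WT) and 88.4% (MEF KO), the highest share of any member in KO MEFs. At a -log10 q of at least 3 its KO minus WT difference was 5.69 points in place of 28.8 in mESCs, and 80.7 in place of 43.5 in MEFs. In WT MEFs its first peak began 22915 bp from the record start, beyond both coding starts with Pol II. In KO MEFs it began at 1714 bp, and bins 2 to 8 of the body were covered in full. Tdg was covered to 36.5% in WT against 44.97% in KO mESCs, and 39.4% against 56.1% in the MEF pair. The mESC difference, 8.45 points, became -1.43 when equal numbers of WT and KO peaks were used and 35.1 at a -log10 q of at least 3, where the MEF difference was 52.6 in place of 16.7. Its fold was 3.07 in both mESC libraries and was 3.20 in WT and 4.85 in KO MEFs, and part of its body is shared with Glt8d2.

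**Figure D5:**
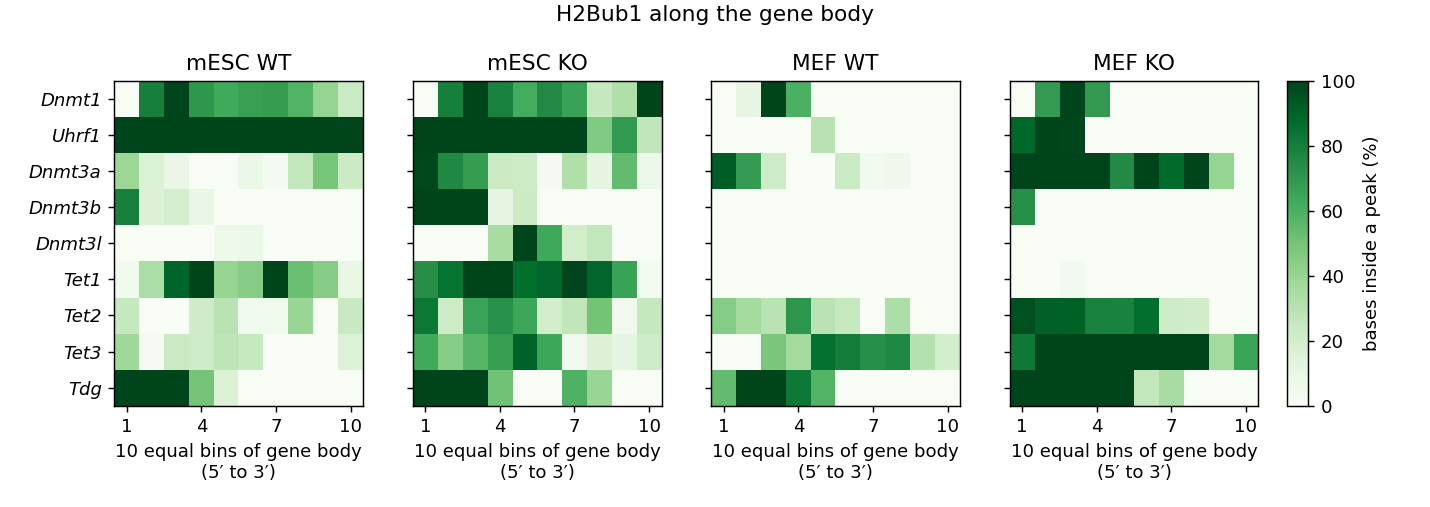
H2Bub1 covered share (%) in 10 equal bins of the gene body from the record start (left) to the end (right) for the 9 genes in the 4 groups, 1 library each. The first bin of Dnmt1 is at 0% in all 4 groups, and the last 3 bins of Uhrf1 are lower in KO than in WT mESCs.

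Between the cell types the genes fell into the same 2 sets in both genotypes when all deposited peaks were used. Uhrf1, Tet1, Dnmt1, Dnmt3b and Dnmt3l had the higher covered share in mESCs, 5 of 9 in WT (74.3% of genes with a peak in either cell type) and the same 5 in KO (43.2%). The mESC minus MEF difference was 97.0 points in WT and 55.4 in KO for Uhrf1, 52.0 and 78.8 for Tet1, and 39.9 and 38.1 for Dnmt1. It was 12.4 and 26.1 points for Dnmt3b, and 1.32 and 24.6 for Dnmt3l. Tet3, Tet2, Dnmt3a and Tdg had the higher share in MEFs. Their differences were -29.7 points in WT and -44.3 in KO for Tet3, -11.8 and -13.0 for Tet2, -4.33 and -40.7 for Dnmt3a, and -2.90 and -11.1 for Tdg. In WT these sets did not hold at a -log10 q of at least 3, where Uhrf1 and Tet1 alone kept their place, Tet2 turned direction (5.00% in mESCs and 0% in MEFs) and the other 6 were at 0% in both cell types. In KO the direction was kept at that limit by every member except Dnmt3l, which was at 0% in both. For Dnmt1 it then rested on close values, 25.8% in KO mESCs and 23.7% in KO MEFs. The mESC and MEF lists differ in peak number and covered length, and this was not adjusted for.

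Other genes of DNA methylation were taken from a list of 43, all of them found in the annotation. It holds, among others, cofactors, readers of methylated DNA, base excision repair genes and genes of methyl donor supply. Pol II promoter calls among the 43 numbered 26 (mESC WT), 23 (mESC KO), 35 (MEF WT) and 32 (MEF KO), where the shares of all genes were 33.9%, 31.3%, 54.1% and 51.1%. In mESCs 34 of the 39 with an H2Bub1 peak had a higher covered share in KO and 4 a lower one, and in MEFs 38 of 38 had a higher one, where all genes with a peak gave 83.6% higher and 14.7% lower in mESCs and 98.7% higher in MEFs. The 4 that were lower in KO mESCs, as Uhrf1 was, named after their values were seen, were Ahcy and Mat2a of the methyl donor cycle (-8.22 and -18.4 points), the remodeller Hells (-1.65) and Parp1 (-16.5). The largest increases in mESCs were those of Dppa3 (from 0% to 67.7%), whose protein keeps UHRF1 from chromatin, the repair scaffold Xrcc1 (37.8% to 85.2%) and Zfp57 (43.7% to 88.3%), which guards imprinted methylation. At a -log10 q of at least 3 Dppa3 had no H2Bub1 peak in KO mESCs, and it had no Pol II peak near a coding start in any library. In MEFs the largest increases were those of Zbtb33 and Apex1, each from 0% to 100%, and Zfp57, from 0% to 86.2%. The median share of the list was 15.4% (WT) and 48.5% (KO) for mESCs, and 4.91% (WT) and 49.5% (KO) for MEFs, against 17.1% and 28.8% for the 9 genes in MEFs.

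Promoter peaks in WT mESCs alone were seen at 4 genes of the list (7.64% of all genes). They were Usp7 (fold 4.02), whose protein stabilises UHRF1 and DNMT1, the glycosylase gene Mbd4 (3.54) and, named after their values were seen, Apobec1 (3.44) and Kdm1b (2.95). Usp7 had Pol II at another coding start in KO mESCs as well. Xrcc1 was the 1 gene with a peak only in KO mESCs (3.76), as were 5.13% of all genes. In MEFs Zfp57 (9.12), Cxxc4 (3.59) and Zbtb38 (3.55) had a peak at the record start only in WT (4.41% of all genes), and no gene of the list had one only in KO (1.46%). Near any coding start, however, Zfp57 had a fold of 9.12 (WT) and 20.1 (KO) and Zbtb38 of 19.2 (WT) and 13.9 (KO), so Cxxc4 alone of the 3 lacked Pol II in KO MEFs.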

How the data were processed

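H2Bub1 and Pol II were measured by ChIP-seq in 8 libraries, 1 per group. The submitters' processing notes name bcl2fastq 2.17.1.14, Bowtie 1.0.0, MACS2 2.1.1.20160309 and mm10. The authors called broad peaks for H2Bub1 and narrow peaks for Pol II in single libraries. The control and thresholds are not given in the sources used here. Their methods describe scaling H2Bub1 by reads over intergenic regions and Pol II by total reads, but not how this entered the calls. The deposited values are a fold, -log10 p and -log10 q of each peak, a score that was not used, and for narrow peaks the summit offset. The fold is the ratio of pileup over the background estimated for that library. Reads behind each library are unknown, and deeper libraries give more and wider peaks.

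Peaks were set, 1-based, against GENCODE M21 (GRCm38). A promoter was the record TSS with 1000 bp on each side, a gene body ran from TSS to transcript end, and a call needed 1 bp. The members and lists were chosen with earlier results of these data known. All 9 members are named. Of the other pathway genes, up to 3 per cell type with the highest Pol II fold among promoters called in 1 genotype, and the 3 with the largest H2Bub1 rise, are named. For each member the other gene with the smallest Euclidean distance over 8 values is named (4 covered shares as fractions and 4 promoter values as log2(fold + 1) over the list's largest). Atxn7l3 and cell type markers were checks. The other settings tried were a stricter -log10 q (3 or more), equal peak numbers per WT and KO pair, promoters of 100 bp upstream to 300 bp downstream or 2000 bp either side, any coding start, the summit inside the window, bodies extended by 1000 bp, without their first 1000 bp or from another start, joined peaks, and 10% of the body as the call. A value within 1.5 times counted as unchanged. The functions were tested on simulated data. Scripts ran under Python 3.11.15 with pandas 2.3.3, numpy 2.4.6, matplotlib 3.10.9 and, for lookups, scipy 1.17.1.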

Additional observations from a re-analysis of the deposited data

Results flagged for a closer look

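Uhrf1 moved in opposite directions in the cell types, its H2Bub1 covered share being -15.8 points lower in KO than in WT mESCs and 25.8 points higher in KO than in WT MEFs. The WT mESC share is at its ceiling of 100%, and the fold of its peaks, weighted by length, was lower in KO in both (3.72 and 3.48 in mESCs, 2.70 and 2.29 in MEFs). Tet3 did so for the highest Pol II fold near any coding start, with a log2 ratio of KO to WT of -0.26 in mESCs and 0.69 in MEFs. In MEFs that ratio sets the start at 17409 bp in KO against the start at 2692 bp in WT, and at each start taken alone both cell types moved the same way. Each direction rests on 1 library per group, and the difference between the cell types was not tested.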

How the results depend on the processing

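Covered lengths and calls depend on depth, which is unknown, and no library has a replicate. No paired analysis was possible because each group holds 1 library. Of 88 alternative values for counts and medians over the members, 79 stayed within 1.5 times the main value. With any coding start, members with a Pol II peak numbered 7 in WT mESCs, 7 in KO mESCs and 8 in WT MEFs, in place of 4, 3 and 5, and a promoter of 2000 bp either side gave 5 in KO mESCs. With a -log10 q of at least 3, members with H2Bub1 fell from 9 to 3 in WT mESCs (21.3% of all genes) and from 6 to 0 in WT MEFs (5.52%). In KO they numbered 8 in mESCs (44.0%) and 7 in MEFs (48.1%). The median covered share of the members at that limit was 0% (WT) and 25.8% (KO) in mESCs, and 0% in place of 17.1% in WT MEFs. With equal numbers of peaks, the KO minus WT difference of Tdg in mESCs reversed from 8.45 to -1.43 points. The cause was not tested. Of the values of single members, 134 were unchanged, 10 moved by more than 1.5 times with their sign kept, and 3 went to 0. Those 3 were the difference of Dnmt3l in mESCs with a -log10 q of at least 3, and that of Tet1 in MEFs with this limit and with equal numbers of peaks. Lost promoter calls are not in this tally. Uhrf1 lost its call in KO MEFs with the promoter of 100 bp upstream to 300 bp downstream. Dnmt3a lost its call in WT MEFs with the summit inside the window, and in WT mESCs with equal numbers of peaks. The body from the coding start with the highest Pol II fold was chosen after seeing the data and reversed no direction.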

Other observations

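The protein-coding genes whose 8 values lay nearest to those of each member were Rfc2 for Dnmt1 (distance 0.114), Plk1 for Uhrf1 (0.185), Zfp930 for Dnmt3a (0.0942), Rad54l for Dnmt3b (0.102) and Map2k6 for Dnmt3l (0.0040). They were Gstp3 for Tet1 (0.0606), Cops3 for Tet2 (0.103), Gm11084 for Tet3 (0.142) and Kmt2a for Tdg (0.143). The values of Dnmt1, Tet1 and Tet3 in this measure come from the record start, where none had a Pol II peak, so their nearest genes are alike in H2Bub1 and in the lack of that peak. The targeted gene Atxn7l3 itself had a covered share of 100% (mESC WT), 62.5% (mESC KO), 22.0% (MEF WT) and 65.3% (MEF KO), lower in KO than in WT mESCs and higher in KO than in WT MEFs. These shares are over the whole gene and not over a deleted part, so they do not check the genotype.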
